A study of Mus musculus with 12 samples.

Results

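The chemokine ligands and chemokine receptors were examined in lungs of newborn mice that lacked cavin-1 (PTRF), the coat protein that caveolae need to form. All probes whose annotated symbol began with *Ccl*, *Cxcl*, *Ccr* or *Cxcr* and a digit, or was *Xcl1*, *Xcr1*, *Cx3cl1* or *Cx3cr1*, were taken, without regard to their signal. This gave 79 of 45281 probes and 54 of 19057 genes, 36 for ligands and 18 for receptors. Lungs of 6 cavin-1 knockout (KO) mice were compared with those of 6 wild type (WT) mice, all newborns of 0 to 6 h on a C57/bl6 background, with 1 Illumina mouse array per animal. The WT mice were littermate controls, and the knockout was made with a vector that carried a lacZ/neo cassette and was not restricted to a cell type. Whole lung was used, so that fewer cells of a type and less RNA per cell cannot be told apart.

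Chemokines are small secreted proteins that bind the matrix and cell surfaces and form gradients along which leukocytes migrate. They act on G protein-coupled receptors that couple to Gi proteins, and most are named after the spacing of their first cysteines (CC, CXC, CX3C and XC). Some are induced by inflammatory signals through NF-κB, such as the neutrophil attractant *Cxcl1*, whereas others, such as *Cxcl12*, are made constantly and position cells during development and in tissues at rest. In the lung, chemokines are made by epithelium, endothelium, fibroblasts and macrophages.

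Promoter sequences are shown for *Cxcl1*, the gene with the smallest p among them, for *Cxcl2* and *Cxcl3*, its neighbours of the same ligand group on chromosome 5, and for *Cxcl12*, which had a lower mean in KO lungs. They hold the 120 bases before the annotated start on the plus strand (RefSeq, build GRCm38.p6), at chr5:90891125-90891244, chr5:90903779-90903898, chr5:90785981-90786100 and chr6:117168415-117168534. Capitals mark the longest run of letters that the windows of *Cxcl1*, *Cxcl2* and *Cxcl3* share, GGGAATTTCCC, which contains a form of the κB motif bound by NF-κB.
Cxcl1: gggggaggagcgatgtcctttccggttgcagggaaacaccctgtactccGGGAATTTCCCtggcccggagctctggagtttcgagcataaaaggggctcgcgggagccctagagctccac
Cxcl2: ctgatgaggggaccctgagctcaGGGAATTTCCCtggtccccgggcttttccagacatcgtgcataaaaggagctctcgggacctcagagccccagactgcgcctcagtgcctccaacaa
Cxcl3: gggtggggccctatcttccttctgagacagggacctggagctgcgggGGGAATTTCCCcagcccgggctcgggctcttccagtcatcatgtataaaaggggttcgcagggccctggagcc
Cxcl12: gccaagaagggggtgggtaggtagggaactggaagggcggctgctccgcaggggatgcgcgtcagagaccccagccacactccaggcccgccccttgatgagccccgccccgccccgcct

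The 11 bases were searched on both strands in the 250 bases before each start. Of 54 members, 40 had a promoter in the table, and of these 40 genes only the 3 from which the run was read held it. Over all 32851 promoters, 14 (0.0426%) held it. The match ended 60, 86 and 62 bases before the start in *Cxcl1*, *Cxcl2* and *Cxcl3*. It describes the letters in this window only.

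Signals are on the log2 scale after background correction and quantile normalization, with the median taken over the probes of each gene. A log2 fold change is the KO mean minus the WT mean, followed by ± its SE and the p adjusted over all genes (limma). *Cavin1* was examined first. Its merged signal lay between 2.72 and 4.13 in 5 KO lungs and between 9.90 and 10.32 in WT lungs, but was 10.07 in the library labelled KO 157, at the WT level. Its title and its description also differ in the animal number. The label was kept. Without this library, the log2 fold change of 11 of the 24 members detected on at least 6 arrays turned sign or moved by over 1.5 times, and these values are given beside the genes. The count includes values near 0, such as those of *Cxcl15* (−0.05 and 0.03). It was not made over all genes or for other arrays, so it does not set this library apart. On each array 45.3% to 49.1% of probes were detected, meaning a detection p under 0.05, and all 6 lung epithelial markers were detected. WT 142 was the highest WT array for 16 of 24 detected members, and KO 157 and KO 192 were each the lowest KO array for 10 of the 24. These ranks were not counted over all genes, so they are not read as particular to the members. Transcripts of T cells varied widely among arrays, with a summed signal of the T cell list from 27.4 to 2214 in KO lungs and from 55.7 to 269 in WT lungs.

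Of the 54 members, 24 were detected on at least 6 arrays (20 ligands and 4 receptors), and 20 of these on all 12. Another 13 were detected on 1 to 5 arrays, and 17 were detected on none. The number of members detected per array was 23 to 29. Among the ligands, 4 of 5 homeostatic and 5 of 7 epithelial members were detected on at least 6 arrays, as were *Ccl6*, *Ccl9*, *Ccl5* and *Cxcl1*. Among the receptors only *Cxcr4*, *Cx3cr1*, *Cxcr2* and *Ccr6* reached 6 arrays.

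No member passed the threshold of an adjusted p under 0.05 in limma, where 0.199% of all 19057 genes passed (18 higher and 20 lower in KO lungs). At an unadjusted p under 0.05, 7 of 54 members were found against 13.7% of all genes. Of the 24 detected members, 6 had such a p, against 17.1% of the 11659 genes detected on as many arrays. Of these, 4 were higher in KO lungs (*Cxcl1*, *Ccl6*, *Ccl17* and *Ccl27a*, against 7.5% of detected genes) and 2 lower (*Ccl7* and *Cxcl12*, against 9.61%). Without the library labelled KO 157, no member passed either, where 0.115% of all genes did, and 3 of the 24 had an unadjusted p under 0.05 against 14.4%. All 3 were higher in KO lungs (against 6.24% of detected genes) and 0 lower (against 8.14%). With WT 142 left out too, 6 of the 24 were higher at an unadjusted p under 0.05 (against 6.7%) and 0 lower (against 8.6%). The median log2 fold change was −0.03 over the 24 members and −0.02 over all detected genes, with 11 members higher and 13 lower, where 46.7% of detected genes were higher. The median turned to 0.11 with 13 members higher when the library labelled KO 157 was dropped, and to 0.19 with 16 higher when WT 142 was dropped as well, where 46.2% of detected genes were higher in either fit. Their log2 fold changes ranged from −0.97 to 1.26, with both signs within most role groups.

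**Figure D1:**
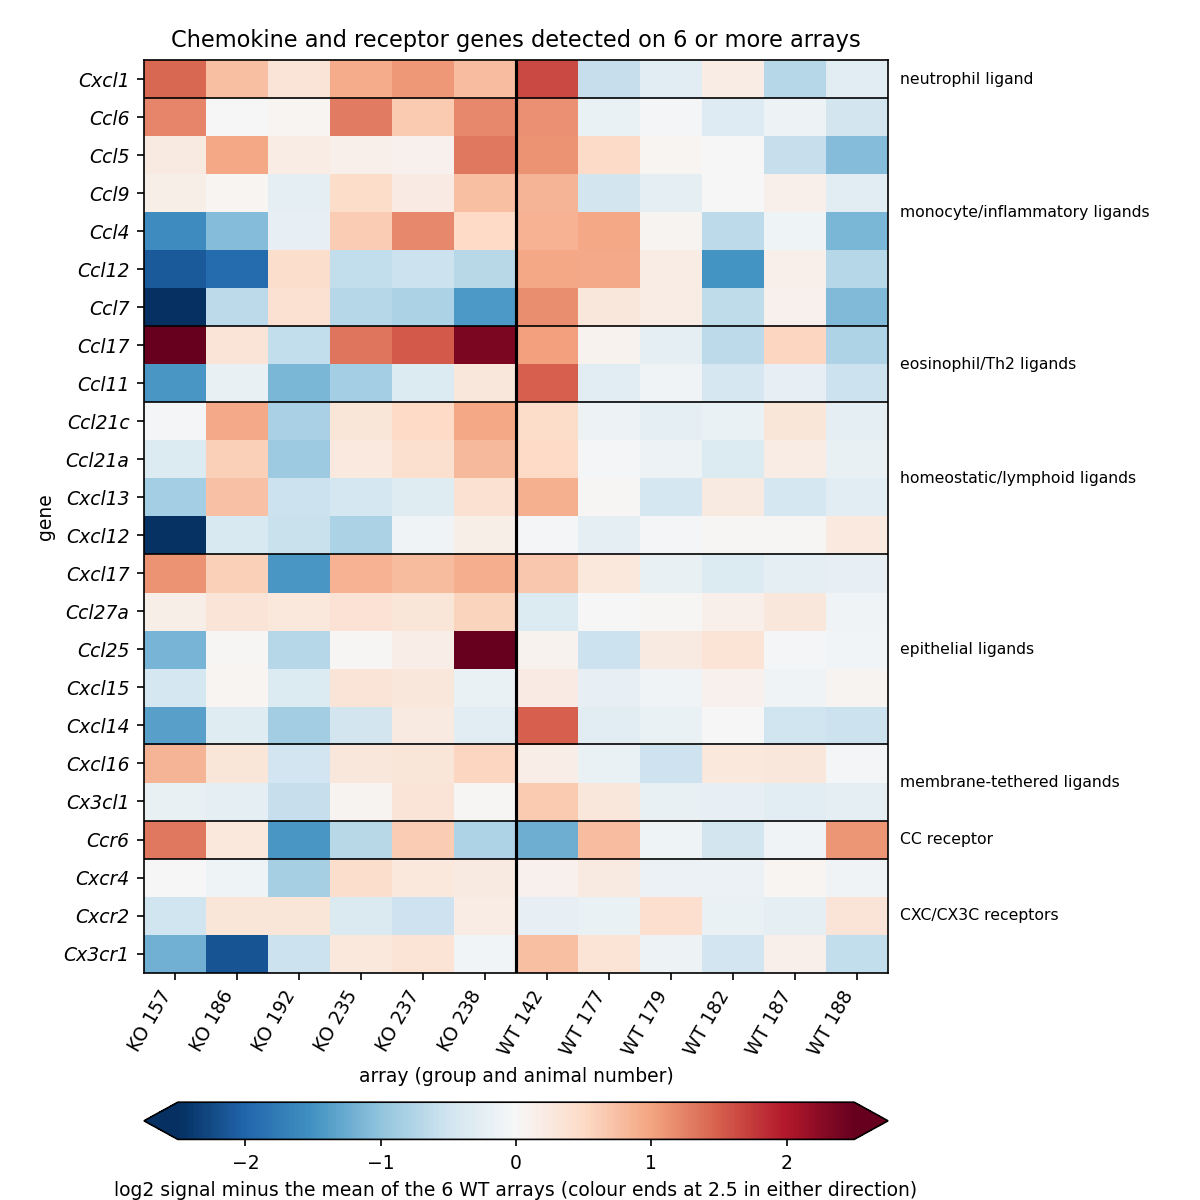
Heat map of the 24 detected members (rows, grouped by role) on the 12 arrays (columns, group and animal number). Colour gives the log2 signal minus the mean of the 6 WT arrays. WT 142 is red for most ligands, KO 157 is dark blue for *Ccl7* and *Cxcl12*, and KO 238 is dark red for *Ccl25*.

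**Figure D2:**
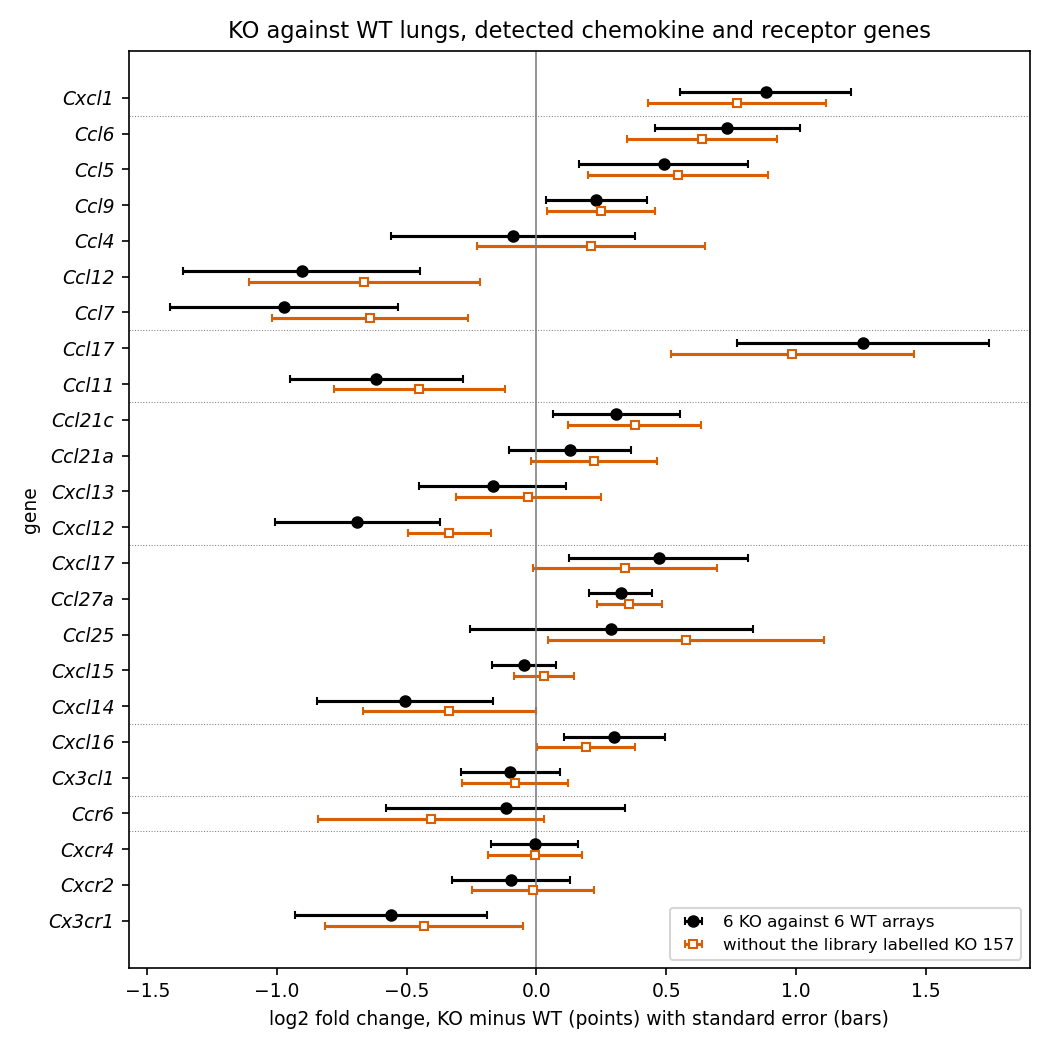
Log2 fold change, KO minus WT, of the 24 detected members with its standard error (bars), for 6 against 6 arrays (filled circles) and without the library labelled KO 157 (open squares). *Ccl17* has the highest value (1.26) and *Ccl7* the lowest (−0.97), and no member had an adjusted p under 0.05 in either fit.

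*Cxcl1* encodes a ligand of CXCR2 that recruits neutrophils. Its log2 signal had a lowest, median and highest value of 5.51, 6.05 and 6.63 in KO lungs and of 4.48, 4.93 and 6.85 in WT lungs. The highest array of all was WT 142, whereas the other 5 WT arrays ended at 5.38, below every KO array. The mean was 6.08 ± 0.37 in KO and 5.20 ± 0.87 in WT lungs (SD, *n* = 6 each). This was a log2 fold change of 0.88 ± 0.33 (adjusted p = 0.248), a 1.84-fold higher mean in KO lungs. Without WT 142 it was 1.22 ± 0.22 (adjusted p = 0.0454), which passed, in a comparison where 0.126% of all genes passed. Without the library labelled KO 157 it was 0.77 ± 0.34 (adjusted p = 0.383), and without both it was 1.11 (adjusted p = 0.060). The threshold was thus passed with WT 142 left out and the library labelled KO 157 kept, and not in these other fits.

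The CXCR2 ligands *Cxcl2* and *Cxcl3* were near background. *Cxcl2* was detected on 2 KO arrays and on 1 WT array, which was again WT 142 with a log2 signal of 5.11, and its log2 fold change was 0.39 ± 0.50 (adjusted p = 0.790), or 0.88 (adjusted p = 0.242) without WT 142. *Cxcl3* was not detected on any array. *Cxcr2*, the receptor on neutrophils, had a median log2 signal of 4.29 in KO and 4.21 in WT lungs with overlapping groups and a log2 fold change of −0.10 ± 0.23 (adjusted p = 0.899), which was −0.01 without the library labelled KO 157. Only 1 of its 2 probes was detected, and this probe (ILMN_1223834) gave −0.40 ± 0.26 (adjusted p = 0.530), and −0.25 without the library labelled KO 157. *Cxcr1* was not detected.

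Neutrophil markers were read beside these genes. Of 8 measured, 7 had higher means in KO lungs, where 46.7% of detected genes were higher. At an unadjusted p under 0.05, 5 of the 8 were higher, against 7.5% of detected genes. None passed the adjusted threshold. The smallest adjusted p was 0.0836, for *Camp*, which passed without WT 142 with an adjusted p of 0.0454. The log2 fold changes of *Camp*, *Ngp* and *Elane*, which encode granule proteins, were 1.14, 0.98 and 1.04, while that of *S100a9* was 0.38. These genes are only a part of the list, in which 1 marker had a lower mean in KO lungs. The median over the markers of the log2 signal minus the WT mean was 0.12 to 1.13 on the KO arrays. It was −0.34 to 0.03 on the WT arrays other than WT 142, which had 0.68. The summed signal of the list, in which bright genes weigh most, ranged from 16664 to 24198 in KO and from 14591 to 24676 in WT lungs. All 8 markers were detected on at least 6 arrays, and WT 142 was the highest WT array. Their part in the result for *Cxcl1* was not tested.

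The ligands for monocytes and other inflammatory cells on chromosome 11 differed in sign. *Ccl6* and *Ccl9* encode ligands of CCR1 made by myeloid cells. The log2 signal of *Ccl6* had a lowest, median and highest value of 8.49, 9.43 and 9.81 in KO lungs and of 8.04, 8.36 and 9.64 in WT lungs. As for *Cxcl1*, WT 142 lay among the highest KO arrays, and the other 5 WT arrays (up to 8.45) lay below all 6 KO arrays. The log2 fold change was 0.74 ± 0.28 (adjusted p = 0.258). It became 0.97 (adjusted p = 0.100) without WT 142, and 0.64 (adjusted p = 0.394) without the library labelled KO 157. *Ccl9* was bright on all arrays (10.54 ± 0.34 in KO and 10.31 ± 0.46 in WT lungs, SD) with a log2 fold change of 0.23 ± 0.19 (adjusted p = 0.656), which was 0.40 without WT 142 and 0.13 without KO 238. *Ccl5*, the T cell and monocyte attractant RANTES, had 0.49 ± 0.33 (adjusted p = 0.550).

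*Ccl7* and *Ccl12* encode monocyte chemoattractants that act on CCR2. *Ccl7* had a lowest, median and highest log2 signal of 2.42, 4.30 and 5.44 in KO lungs and of 3.95, 5.21 and 6.22 in WT lungs. The groups overlapped, with the library labelled KO 157 lowest and WT 142 highest. Its log2 fold change was −0.97 ± 0.44 (adjusted p = 0.342), a 1.96-fold lower mean in KO lungs. For *Ccl12* the values were 3.80, 5.25 and 6.35 in KO and 4.41, 6.06 and 6.88 in WT lungs, again overlapping and with the same arrays at the ends. The log2 fold change of *Ccl12* was −0.90 ± 0.46 (adjusted p = 0.402).

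Both values became smaller in size without the 2 arrays at the ends. The values were −0.64 for *Ccl7* (adjusted p = 0.520) and −0.66 for *Ccl12* (adjusted p = 0.588) without the library labelled KO 157. With WT 142 left out too, they were −0.41 and −0.47. Leaving out KO 192 alone made both larger in size, at −1.25 for *Ccl7* and −1.17 for *Ccl12*, and neither passed. With each probe tested on its own over all 12 arrays, the 2 probes of *Ccl7* gave −1.30 (ILMN_2835117) and −0.65 (ILMN_2771176). Those of *Ccl12* gave −1.09 (ILMN_2771766) and −0.72 (ILMN_3161805). *Ccl2*, the best known CCR2 ligand, was detected on 2 KO arrays and 1 WT array, with a log2 fold change of −0.27 ± 0.38 (adjusted p = 0.809), and −0.08 without the library labelled KO 157. *Ccl8* and *Ccr2* itself were each detected on 1 array.

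**Figure D3:**
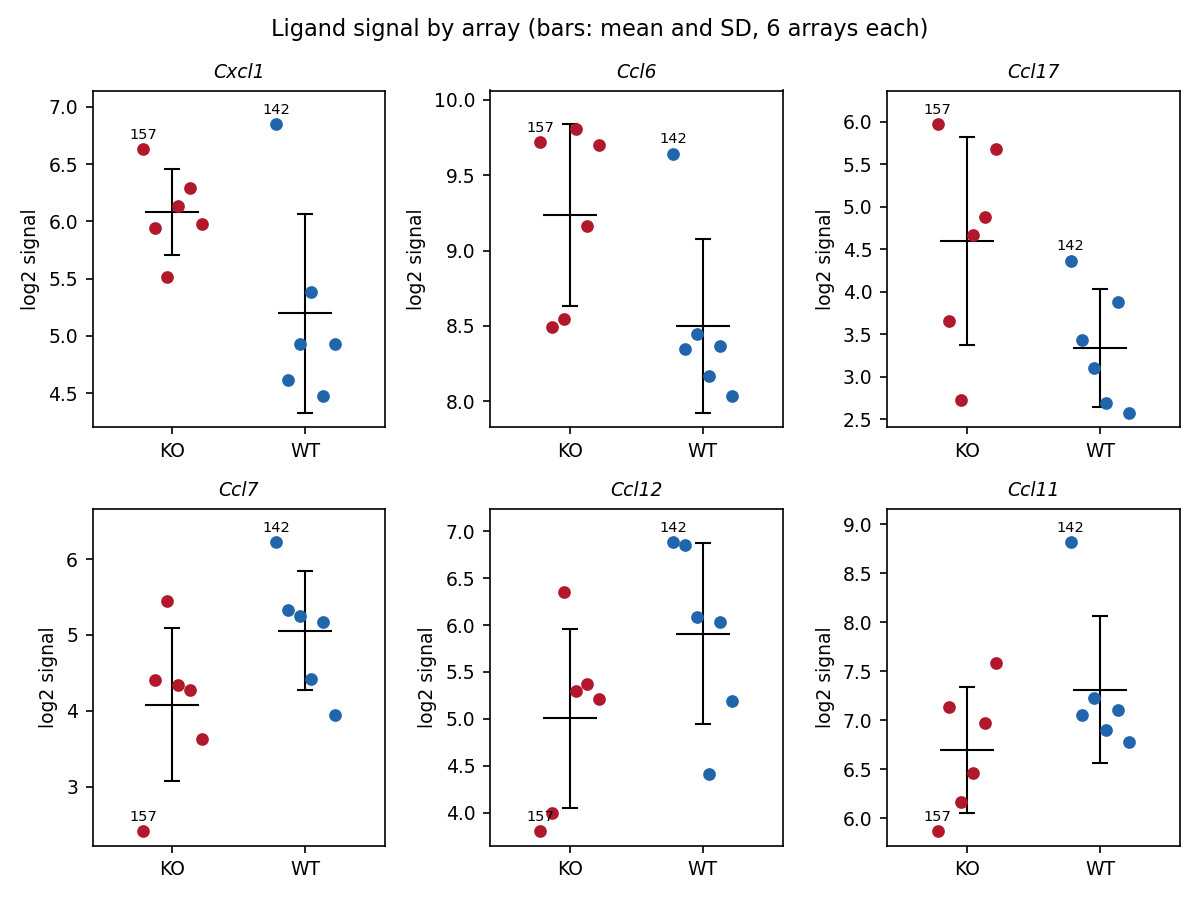
Log2 signal on each array (points) with the mean and SD of 6 arrays per group for 6 ligands. *Cxcl1*, *Ccl6* and *Ccl17* (upper row) have higher means in KO lungs and *Ccl7*, *Ccl12* and *Ccl11* (lower row) lower means, and the groups overlap for each. The library labelled KO 157 and WT 142 are marked by number.

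*Ccl17* (TARC, a ligand of CCR4 made by dendritic cells) had the largest log2 fold change among the detected members with this background correction. It was detected on 5 KO arrays and on 2 WT arrays. The log2 signal had a lowest, median and highest value of 2.72, 4.77 and 5.98 in KO lungs and of 2.58, 3.26 and 4.36 in WT lungs. The library labelled KO 157 was highest and 4 KO arrays lay above all WT arrays, while KO 192 lay near the lowest WT arrays. The mean difference between the groups was a log2 fold change of 1.26 ± 0.48 (adjusted p = 0.265). No background correction gave 0.24, below the 0.61 of *Ccl6*, and 4 of the 6 WT arrays were not above background, so the size depends on this step. It became 1.64 (adjusted p = 0.0662) without KO 192, and 0.99 ± 0.47 (adjusted p = 0.421) without the library labelled KO 157. *Ccl22*, the other ligand of CCR4, was detected on 1 array of each group and had −0.57 ± 0.35 (adjusted p = 0.521), and *Ccr4* was not detected.

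*Ccl11* encodes eotaxin, the ligand of CCR3 on eosinophils. Its log2 signal had a lowest, median and highest value of 5.87, 6.71 and 7.59 in KO lungs and of 6.78, 7.08 and 8.82 in WT lungs. The highest value was that of WT 142, the other 5 WT arrays ended at 7.23, and 3 KO arrays lay below all WT arrays. This gave a log2 fold change of −0.62 ± 0.33 (adjusted p = 0.441), and −0.32 (adjusted p = 0.642) without WT 142. *Ccl24*, *Ccl26* and *Ccr3* were detected on at most 1 array each.

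Among markers of eosinophils and mast cells, *Prg2*, which encodes the eosinophil granule major basic protein, rose in KO lungs, by 1.37 ± 0.26 (adjusted p = 0.0491), and was the only gene to pass in the 16 lists read beside the members. This call was close to the threshold. It was lost in 10 of 12 fits with 1 array left out (adjusted p up to 0.115) and in 11 of 15 other settings, with no background correction among them (0.31, adjusted p = 0.0517). Of the 5 markers in this list, *Epx* and *Siglecf* were not detected on any array, so their direction cannot be read. With these included, 4 of the 5 had higher means in KO lungs, against 48.4% of all genes, and none but *Prg2* passed. The summed signal of the markers ranged from 292 to 541 in KO and from 184 to 416 in WT lungs. Their part in the results for *Ccl17* and *Ccl11* was not tested.

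*Cxcl12* encodes SDF-1, the ligand of CXCR4, which guides vascular and blood cell development. It has 5 probes, annotated to different transcripts, of which 3 were detected on all 12 arrays and 2 on none. The probe ILMN_2658908 (transcript NM_013655) was the brightest, with a lowest, median and highest log2 signal of 10.99, 11.87 and 12.05 in KO lungs and of 12.09, 12.30 and 12.50 in WT lungs. The probe ILMN_3158250 (transcript NM_001012477) had 7.05, 8.23 and 8.53 in KO and 8.56, 8.85 and 9.20 in WT lungs. The groups did not overlap for either probe, although the gap was narrow (12.05 against 12.09, and 8.53 against 8.56), and the library labelled KO 157 was the lowest for both.

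With each probe tested on its own, the log2 fold change of ILMN_2658908 was −0.54 ± 0.14 (adjusted p = 0.094 over 45281 probes), a 1.45-fold lower mean in KO lungs. That of ILMN_3158250 was −0.80 ± 0.20 (adjusted p = 0.086), a 1.74-fold lower mean. They had the smallest p among the 79 member probes, of which none passed (0.148% of all probes passed). Non-overlapping groups were found for these 2 of 37 detected member probes, against 2.48% of all probes detected on as many arrays. They were −0.39 ± 0.08 (adjusted p = 0.093) and −0.59 ± 0.13 (adjusted p = 0.095) in the fit that omitted the library labelled KO 157, and without KO 192 both probes passed (adjusted p = 0.037 and 0.032). In that comparison 1.28% of all probes passed, and 6 of the 79 member probes did.

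The third detected probe, ILMN_2737302 (transcript NM_021704), was dimmer and overlapped, with a lowest, median and highest log2 signal of 4.90, 6.90 and 7.51 in KO lungs and of 7.13, 7.37 and 7.61 in WT lungs. It is the median of the 5 probes on each array and thus sets the merged value of the gene, a log2 fold change of −0.69 ± 0.32 (adjusted p = 0.351). The library labelled KO 157 lay far below the other arrays, and without it the log2 fold change was −0.34 ± 0.16 (adjusted p = 0.420). The result for the gene depends on the processing. Over 27 other settings its adjusted p, or q with SAM, ranged from 0.065 to 0.602. With single arrays left out the adjusted p (limma) was 0.295 to 0.478, so the lowest value came from another setting. The 2 probes that were never detected gave no level to compare.

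**Figure D4:**
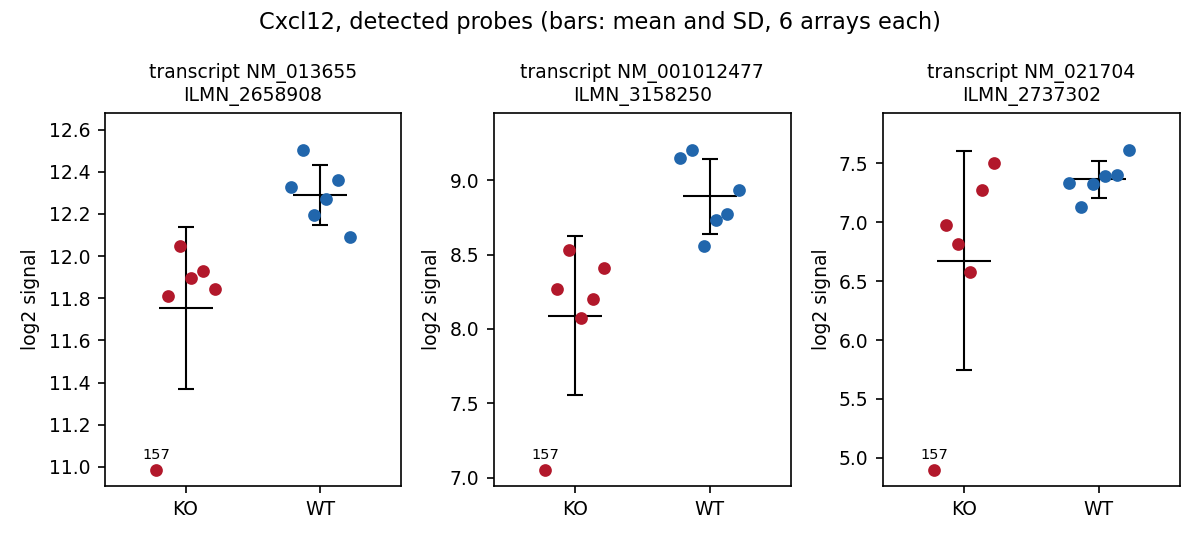
Log2 signal of the 3 detected *Cxcl12* probes on each array (points) with the mean and SD of 6 arrays per group. KO and WT arrays do not overlap for the probes on the left and in the middle and do overlap for the probe on the right, and the library labelled KO 157, marked by number, is the lowest in all 3.

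*Cxcr4*, the signalling receptor for CXCL12, had a lowest, median and highest log2 signal of 8.62, 9.56 and 9.89 in KO lungs and of 9.30, 9.44 and 9.68 in WT lungs. The KO arrays lay on both sides of the WT arrays, with KO 192 lowest. Its log2 fold change was −0.01 ± 0.17 (adjusted p = 0.992). *Ackr3*, the scavenging receptor for CXCL12, was detected on 2 WT arrays and on no KO array, with a fitted log2 difference of −1.01 ± 0.31 (adjusted p = 0.161), which gives no fold since the KO arrays were not above background. The endothelial markers, a list of 5 that were all detected, had higher means in KO lungs for 4, against 46.7% of detected genes. Their median log2 fold change was 0.44 and their smallest adjusted p was 0.0873. Their summed signal ranged from 9070.4 to 13247 in KO and from 8843 to 11537 in WT lungs, and their part in the results for *Cxcl12* was not tested.

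The other homeostatic ligands had overlapping groups. *Ccl21a* and *Ccl21c* encode near-identical forms of the CCR7 ligand of lymphatic vessels, so that their probes may report either gene. *Ccl21c* had a lowest, median and highest log2 signal of 8.84, 10.05 and 10.63 in KO lungs and of 9.42, 9.51 and 10.11 in WT lungs. KO 186 and KO 238 were highest and KO 192 lowest, which was also the order at the ends for *Ccl21a*. The log2 fold change was 0.31 ± 0.25 (adjusted p = 0.632) for *Ccl21c* and 0.13 ± 0.24 (adjusted p = 0.866) for *Ccl21a*. Without KO 192 they were 0.53 and 0.34, and without KO 238 they were 0.18 and −0.00753. Without KO 157 that of *Ccl21a* was 0.22. The probe ILMN_2640848 of *Ccl21c* had 0.49 ± 0.23 (adjusted p = 0.361) and passed without KO 192 (0.71, adjusted p = 0.039). *Ccr7*, their receptor, was detected on 4 KO arrays and 1 WT array, with a log2 fold change of 0.63 ± 0.33 (adjusted p = 0.429), and was picked for the text after its values were seen. *Cxcl13*, the B cell attractant, had a median log2 signal of 5.46 in KO and 5.70 in WT lungs and a log2 fold change of −0.17 ± 0.28 (adjusted p = 0.851), and −0.03 without the library labelled KO 157.

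The epithelial ligands included the brightest signals. *Cxcl15* (lungkine), which is made by lung epithelium, had a log2 signal of 14.29 ± 0.32 in KO and 14.34 ± 0.15 in WT lungs (SD), a log2 fold change of −0.05 ± 0.12 (adjusted p = 0.910), and 0.03 without the library labelled KO 157. *Cxcl17*, a mucosal chemokine, had a lowest, median and highest log2 signal of 5.87, 8.14 and 8.45 in KO lungs and of 6.98, 7.12 and 7.99 in WT lungs. A single KO array, KO 192, lay below all WT arrays, while the others began at 7.91, above 5 of the 6 WT arrays. Over all arrays the log2 fold change was 0.47 ± 0.34 (adjusted p = 0.594). Without KO 192 it was 0.86 (adjusted p = 0.032) and passed, in a comparison where 1.17% of all genes passed. Without the library labelled KO 157 it was 0.34 (adjusted p = 0.752).

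*Ccl27a*, whose product attracts skin-homing T cells through CCR10, had overlapping groups with little spread. Its log2 signal had a lowest, median and highest value of 7.24, 7.40 and 7.64 in KO lungs and of 6.75, 7.10 and 7.37 in WT lungs, and 4 KO arrays lay above all WT arrays. It gave a log2 fold change of 0.32 ± 0.12 (adjusted p = 0.251) and 0.36 ± 0.13 (adjusted p = 0.258) without the library labelled KO 157. Near-identical copies of this gene exist in the mouse, so that its probes may report more than 1 copy. *Cxcl14* had values of 3.52, 4.50 and 5.11 in KO and 4.35, 4.65 and 6.38 in WT lungs. WT 142 stood above all other arrays, and the log2 fold change of −0.51 ± 0.34 (adjusted p = 0.555) became −0.21 (adjusted p = 0.790) without it and −0.34 without the library labelled KO 157.

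*Ccl25* encodes TECK, the CCR9 ligand made by thymic epithelium and small intestine. Its brightest probe, ILMN_2942353, had a lowest, median and highest log2 signal of 5.74, 6.41 and 9.69 in KO lungs and of 6.36, 6.63 and 6.82 in WT lungs. The highest value was that of KO 238, and the next KO array had 6.93. The merged log2 fold change was 0.29 ± 0.54 (adjusted p = 0.872), and −0.32 (adjusted p = 0.674) without KO 238, against 0.58 (adjusted p = 0.715) without the library labelled KO 157. KO 238 was also the highest array for the T cell markers *Cd3e* (8.78) and *Cd3d* (9.87) and for *Rag1* (9.26) and *Cd8b1* (9.34), which immature T cells of the thymus express. KO 186, the second highest array for *Cd8b1* (9.03), had 6.93 for the *Ccl25* probe.

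Of the T cell and thymus lists, 0 of 5 and 0 of 9 measured genes passed the threshold, with smallest adjusted p-values of 0.641 and 0.333. The thymus list was chosen after the data were seen. Its summed signal ranged from 52.1 to 1331 in KO and from 61.2 to 516 in WT lungs. The transcription factor of thymic epithelium, *Foxn1*, was not detected on any array. Their part in the values of *Ccl25*, *Ccl21a*, *Ccl21c* and *Ccr7* was not tested.

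**Figure D5:**
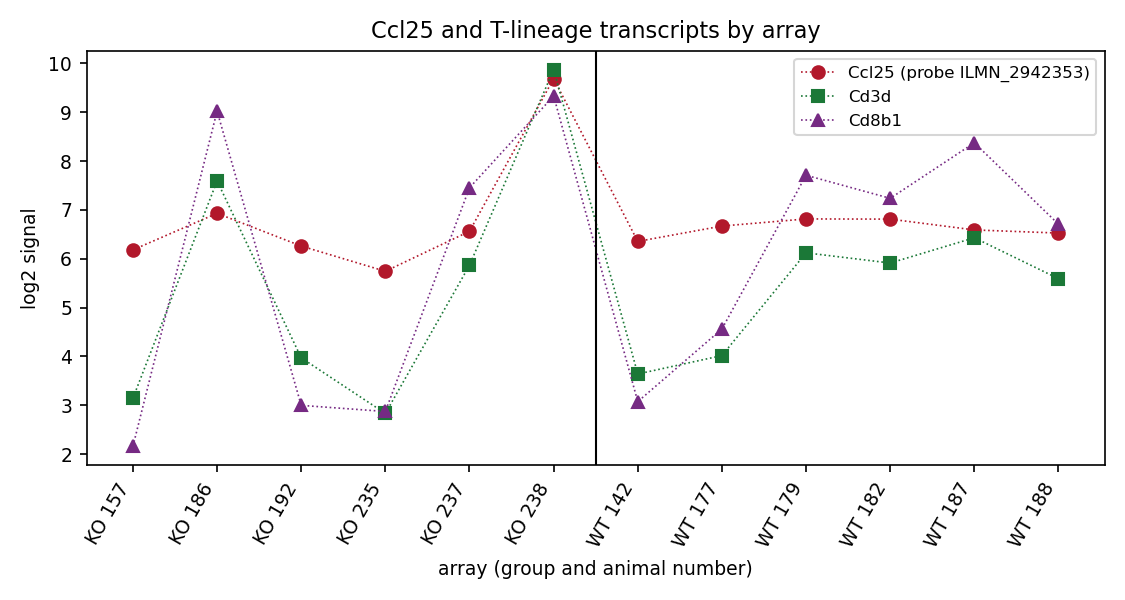
Log2 signal of the brightest *Ccl25* probe and of the T-lineage genes *Cd3d* and *Cd8b1* on the 12 arrays (group and animal number). KO 238 is the highest array for all 3, and the library labelled KO 157, KO 192, KO 235 and WT 142 have low *Cd3d* and *Cd8b1* signals.

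The ligands with a membrane anchor, *Cxcl16* and *Cx3cl1*, also had overlapping groups. *Cxcl16*, the ligand of CXCR6, had a lowest, median and highest log2 signal of 6.60, 7.38 and 7.92 in KO lungs and of 6.56, 7.14 and 7.37 in WT lungs, and the log2 fold change was 0.30 ± 0.20 (adjusted p = 0.542), and 0.19 without the library labelled KO 157. Its brighter probe, ILMN_2687586, had 0.44 ± 0.15 (adjusted p = 0.217) and passed without KO 192 (0.57, adjusted p = 0.032), whereas the other probe had 0.16 ± 0.26. *Cx3cl1* (fractalkine) had 5.90, 6.40 and 6.81 in KO and 6.19, 6.28 and 7.14 in WT lungs, and a log2 fold change of −0.10 ± 0.19 (adjusted p = 0.873).

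*Cx3cr1*, the fractalkine receptor of monocytes and macrophages, had a lowest, median and highest log2 signal of 4.75, 6.60 and 7.25 in KO lungs and of 6.30, 6.91 and 7.67 in WT lungs. KO 186 and the library labelled KO 157 lay below all WT arrays. The log2 fold change was −0.56 ± 0.37 (adjusted p = 0.546) and −0.43 (adjusted p = 0.702) without the library labelled KO 157. Leaving out KO 186, the lowest array, gave −0.24 (adjusted p = 0.782). Of 7 macrophage markers measured, all detected, 5 had higher means in KO lungs, against 46.7% of detected genes, and none passed. The median log2 fold change of these markers was near 0, at 0.007, and 0.06 without the library labelled KO 157. Their summed signal ranged from 8259 to 13507 in KO and from 9907 to 12389 in WT lungs. Their part in the result for *Cx3cr1* was not tested. *Ccr6*, the receptor for CCL20, was detected on 4 KO and 6 WT arrays and had −0.12 ± 0.46 (adjusted p = 0.942), and −0.41 without the library labelled KO 157. *Ccl20* was not detected on any array.

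The interferon-induced ligands of CXCR3 were at or near background. *Cxcl9* and *Cxcl10* were detected on 1 array each, *Cxcl11* on none, and *Cxcr3* on 2 KO arrays. The remaining members below 6 arrays were *Ccl3* (3 arrays), *Ccl19* (3 arrays), *Cxcr5* (1 array) and, detected on none, *Ccl1*, *Ccl28*, *Xcl1*, *Xcr1*, *Ccr1*, *Ccr1l1*, *Ccr8*, *Ccr9*, *Ccr10* and *Cxcr6*. *Ccl4* was detected on 10 arrays through 1 of its 2 probes. Its merged log2 fold change was −0.09 ± 0.47 (adjusted p = 0.958), and the detected probe (ILMN_1223257) gave −0.35 ± 0.61 (adjusted p = 0.857). Both values turned sign without the library labelled KO 157, to 0.21 and 0.11. For genes at background on every array of a group no fold is given.

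Genes that act with the chemokines were read from lists. None of 19 measured genes of receptor signalling passed, with *Rgs1*, which ends Gi signalling, at 1.45 ± 0.52 (adjusted p = 0.222) and *Gnai3*, a Gi subunit, at −0.71 ± 0.26 (adjusted p = 0.240). Of the 19, 8 had higher and 11 lower means in KO lungs, with a median log2 fold change of −0.09. None of 13 NF-κB genes and inducers passed. Of the 13, 8 had higher and 5 lower means in KO lungs, where 48.4% of all genes were higher. Their median log2 fold change was 0.05, and 0.02 without the library labelled KO 157. *Nfkbia*, which encodes the NF-κB inhibitor IκBα and is itself induced by NF-κB, had the smallest adjusted p of that list, with a log2 fold change of 0.74 ± 0.20 (adjusted p = 0.111) and values from 9.36 to 10.84 in KO and from 9.08 to 9.43 in WT lungs. The platelet chemokines *Pf4* and *Ppbp*, whose symbols fall outside the rule, had 0.05 ± 0.19 and −0.10 ± 0.26, and both were highest in WT 142. *Ppbp* gives rise to a further ligand of CXCR2 and was detected on all 12 arrays, with a log2 signal from 7.71 to 8.85 in KO and from 7.72 to 9.53 in WT lungs. Of 6 atypical receptors measured, none passed.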

How the data were processed

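RNA of 12 newborn lungs was measured on Illumina mouse whole genome bead arrays, 1 array per mouse, so that p-values reflect the spread between mice. The authors deposited intensity values, the mean signal of the beads of each probe as GenomeStudio gave them (version not given in the sources used here), with no background subtraction or normalization, each with a detection p-value that the authors deposited beside it. A second table deposited by the authors holds background-subtracted and quantile-normalized intensity values and was used only as an alternative, with values under 16 set to 16. Signals were corrected with the RMA background model, brought to 1 distribution by quantiles and put on the log2 scale (R 4.3.3, limma 3.58.1). Of 45281 probes, 34885 had 1 gene in the platform annotation, 18 had several and were left out, and 10378 had none. Probes of a gene were merged by the median, with no filter on detection. A gene counted as detected on an array when the detection p was under 0.05 for at least 1 probe.

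KO and WT arrays were compared over all 19057 genes in a linear model of limma that lets the variance follow the mean signal, with Benjamini-Hochberg adjustment. The same model was run on each probe, with adjustment over all 45281. Background shares are the percentage of all genes or probes called by the same rule. Named genes are members past the threshold, members with an unadjusted p under 0.05 on at least 6 arrays, and up to 3 detected members with the smallest p in each role group. The members, gene lists and tests were chosen with earlier results of these data known. Promoters came from RefSeq's GRCm38.p6 table, and array positions were not used because the array files name no build. *Cxcl5* was not analysed here. The scripts were tried on simulated arrays. Alternatives were other background corrections, normalizations, filters, probe rules and tests, array weights, and each array left out in turn. Array signal over background and the number of arrays limit the precision. The array labels name no BeadChip, so no term for it was fitted. Plots were drawn with matplotlib in Python.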

Additional observations from a re-analysis of the deposited data

Results flagged for a closer look

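Among the 18 named genes, 36 sets of 6 arrays were examined for an array that stood far from the others, and 5 such values were found. Chance gives about 1 in 20 for independent sets, but these sets share the same arrays. The count was not made over all genes, so it is not read as particular to these genes. The signal of *Ccl11* in WT 142 was 8.82, against 6.78 to 7.23 in the other WT lungs. *Ccl6* in WT 142 was 9.64, against 8.04 to 8.45. *Cxcl14* in WT 142 was 6.38, against 4.35 to 4.87. Of these 5 values, 3 were thus of WT 142, which also had the highest summed signal of the platelet list (4198, against at most 2389 in the other WT lungs). *Cxcl12* in the library labelled KO 157 was 4.90, against 6.58 to 7.51 in the other KO lungs. *Cxcl17* in KO 192 was 5.87, against 7.91 to 8.45. The part of the arrays' other differences in these values was not tested.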

How the results depend on the processing

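The count of members past the threshold was 0 under the other settings, except for the removal of single arrays, where it was 0 to 1 (*Cxcl1* without WT 142 and *Cxcl17* without KO 192). These single-array counts are of genes with merged probes. With each probe tested on its own and KO 192 left out, 6 of 79 member probes passed, against 1.28% of all probes. SAM at q = 0 called 0 of 54 members, but it also called 0 of all 19057 genes, so it does not set the members apart. The study did report genes at q = 0 with its own SAM run, and the reason for this difference was not tested. The methods' t-test called 4 at p under 0.05 before adjustment, where 12.9% of all genes passed, and 0 after it, against 7 and 0 with limma. Over 485 values of single genes under 27 other settings, 465 kept direction and side of the threshold, 18 changed sign and 2 came to pass. The count over all genes was 38, and 6 after median scaling, 20 on the authors' own processed signals, 88 and 106 after filters at a detection p of 0.05 and 0.01, 1 without a trend, 93 with array weights, 0 with SAM at q = 0, 0 with the t-test after adjustment, and 23 genes by their best probe without KO 157. It was 0 to 223 with single arrays left out, the most without KO 192. The count over the other lists was 1 (*Prg2*), and 0 with no background correction, with an offset of 50, with neqc, with median scaling, with the authors' values, with each probe or the brightest probe, without a trend, with SAM and with the t-test. It was 4 with array weights, 2 without KO 157 and WT 142, and 0 to 7 with single arrays left out. Changes of sign concerned values near 0. *Ccr6* became 0.00197 without background correction and 0.00169 with the authors' values, *Cx3cl1* became 0.00958 with array weights and 0.0496 without KO 157 and WT 142, *Cxcr4* 0.0716 and 0.0170, and *Cxcl13* 0.146 without these arrays. With single arrays left out, the log2 fold change ranged from −0.41 to 0.15 for *Ccr6*, from −0.19 to 0.0311 for *Cx3cl1*, from −0.35 to 0.00790 for *Cxcl13* and from −0.10 to 0.16 for *Cxcr4*. The cause was not tested. Without background correction folds of dim genes were smaller, 0.26 on the log2 scale for *Cxcl1* and 0.24 for *Ccl17*. No paired analysis was possible because the study speaks of pairs of mice while the labels used here do not say which KO and WT mice form a pair. The removal of both KO 157 and WT 142 and the probe fit without KO 157 were chosen after the data were seen.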
